A study of Homo sapiens with 24 samples.

Results

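The genes described here are 4 members of the CEACAM family, CEACAM1, CEACAM5, CEACAM6 and CEACAM7, chosen by name from the 58051 genes counted in each library. RNA was sequenced from CTNNB1 WT and CTNNB1 KO cell clones of HT29, HCT116 and SW480, 3 human colorectal cancer cell lines. Each line contributed 2 WT and 2 KO cell clones with 2 libraries per clone, labelled A and B, which gives 4 libraries per group and 24 in all. KO clones carry a CRISPR/Cas9 deletion of 1 exon of CTNNB1, the gene of β-CATENIN, on both alleles. WT clones went through CRISPR/Cas9 and the same cloning steps but kept CTNNB1 unedited, per the study. No clone received any other treatment. HT29 and SW480 cells lack functional APC and HCT116 cells carry an activating CTNNB1 mutation, so that the WNT/β-CATENIN pathway is active in all WT clones without ligand. For HT29, clones 11 and 40 were WT and clones 28 and 38 KO. For HCT116, clones 4 and 6 were WT and clones 44 and 47 KO. For SW480, clones 4 and 5 were WT and clones 17 and 21 KO. A group rests on 2 clones, so its 4 libraries are not 4 independent derivations, and the KO clones of SW480 were reported to become senescent on prolonged culture. The study describes the A and B libraries of a clone as independent biological replicates. P-values of KO against WT and of comparisons between lines thus measure the spread between replicates and clones together. P-values between clones of the same genotype measure only the spread between replicates of a clone.

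CEACAMs are cell surface glycoproteins of the immunoglobulin superfamily that bind one another between neighbouring cells. CEACAM1 spans the membrane and, in its long splice form, carries inhibitory tyrosine motifs in a cytoplasmic tail that recruit phosphatases. CEACAM5, the carcinoembryonic antigen used as a tumour marker, CEACAM6 and CEACAM7 are held in the outer leaflet by a GPI anchor instead. In normal colon all 4 are made by differentiated cells near the luminal surface.

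All 4 genes lie on chromosome 19 (GRCh37). CEACAM7 (ENSG00000007306) at chr19:42177231-42210895 on the minus strand, CEACAM5 (ENSG00000105388) at chr19:42212504-42234353 on the plus strand and CEACAM6 (ENSG00000086548) at chr19:42254885-42276116 on the plus strand are next to each other, with 1608 bases between the first pair and 20531 between the second. CEACAM1 (ENSG00000079385) at chr19:43011456-43065386 on the minus strand is 735339 bases farther along. The 150 bases before the RefSeq start of CEACAM5, CEACAM6 and CEACAM7 were 80.7% to 84.0% identical to each other in pairwise global alignments. Those of CEACAM1 were 66.0% to 72.0% identical to the other 3. Any part of this likeness in the changes of RNA level was not tested. Positions -130 to -31 from the start are shown for 3 genes, 5′ to 3′ on the gene's own strand, taken from RefSeq promoters (GRCh38.p14) and found unchanged in GRCh37 at chr19:42212415-42212514 (plus strand) for CEACAM5, chr19:42259308-42259407 (plus strand) for CEACAM6 and chr19:43032664-43032763 (minus strand) for CEACAM1, with capitals marking matches to the motifs searched.
CEACAM5: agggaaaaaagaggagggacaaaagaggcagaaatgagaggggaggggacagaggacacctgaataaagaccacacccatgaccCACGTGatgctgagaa
CEACAM6: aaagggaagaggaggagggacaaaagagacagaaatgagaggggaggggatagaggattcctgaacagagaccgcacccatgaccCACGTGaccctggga
CEACAM1: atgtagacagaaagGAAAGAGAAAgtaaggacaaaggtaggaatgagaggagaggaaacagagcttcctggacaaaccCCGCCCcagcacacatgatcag
In all 4 windows of 150 bases, 5 motifs were searched on both strands: the E-box CACGTG, the SP1 box GGGCGG, the interferon element (GAAA, any 2 bases, GAAA) and the TCF/LEF sequences CTTTGAT and CTTTGAA. These motifs were chosen after the sequences had been seen, and no motif overlapped another where it matched. CACGTG was present in CEACAM5 at positions -46 to -41 and in CEACAM6 at -45 to -40, and it was present in 4.57% of 35116 RefSeq promoter windows of the same length. GGGCGG was present in CEACAM1 at -52 to -47 on the opposite strand and in 36.8% of all windows, and the interferon element in CEACAM1 at -116 to -107 and in 1.74% of all windows. The letters of CTTTGAT and CTTTGAA, present in 1.29% and 2.04% of all windows, were not in any of the 4 windows. CEACAM7 held none of the 5 motifs in its window. In GENCODE, the window of CEACAM1 was intronic for 1 of its 15 annotated transcripts and lay in no exon of the gene, while 41 bases of the CEACAM5 window, 10 of the CEACAM6 window and 97 of the CEACAM7 window were part of exons of longer transcripts.

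Values are read counts divided by 1 size factor per library, here called normalized counts. Libraries held 22297049 to 29068378 reads on genes. A count of 3 reads, the limit that a count of 0 allows, corresponds to 2.75 to 3.89 normalized counts depending on the library. For HT29, mean CTNNB1 RNA was 6021 ± 99.3 with WT against 299.8 ± 34.1 with KO genotype (SD, n = 4 each). The corresponding means were 11918 ± 999.9 against 218 ± 28.9 for HCT116 and 46967 ± 4376 against 1024 ± 229 for SW480, so each KO group had the lower level its label implies. Reads fell on 20256 to 24944 genes in 23 libraries, with the fewest in HT29 KO 38B, and on 35449 genes in HCT116 KO 47A. The KO against WT values of the line concerned are given with and without these 2 libraries. Epithelial markers (EPCAM, KRT8, KRT18, CDH1, VIL1 and CDX2) summed to between 109600.0 and 645611 normalized counts per library. However, CDX2 stayed at or under 19.9 in HT29 and VIL1 at or under 5.35 in HCT116. In SW480, CDH1 stayed at or under 85.9 and VIL1 at or under 40.5, so the sum does not stand for each marker. A change is called where the Benjamini-Hochberg adjusted p of limma over all genes tested is below 0.05 and the log2 fold change exceeds 1 in size, and fold changes are on the scale of log2(normalized count + 1), which understates changes of low genes. Only genes at or above 10 normalized counts in 4 or more libraries of a fit were tested.

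In HT29, the 3 GPI-anchored members rose strongly in the absence of β-CATENIN. CEACAM5, CEACAM6 and CEACAM7 were all called higher, 3 of the 4 members tested, beside 2.30% of 14921 genes called and 1.90% called higher. By signed log2 fold change, highest first, they stood at positions 13, 30 and 35 of all genes tested. Every KO library was above every WT library for all 3, as it was for 8.31% of genes tested. CEACAM5 and CEACAM7 entered the test through their KO libraries, so their positions and this separation carry no weight of their own. CEACAM1 was the exception, since the ranges of its WT (1179.9 to 8613) and KO libraries (729.9 to 6208) overlapped in part.

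CEACAM5 was at 12.5 and 9.12 normalized counts in WT clone 11 and at 150.2 and 104 in WT clone 40. In the KO libraries it was at 3617 and 3375 in clone 28 and at 2368 and 1228 in clone 38. The lowest KO library, 38B, was thus above the highest WT library. Means were 68.9 ± 69.7 in WT and 2647 ± 1089.8 in KO (SD, n = 4 each), a ratio of 38.4. The log2 fold change was 5.99 ± 0.881 (SE), with an adjusted p of 0.0110 (limma). With 3 of 4 WT libraries at 10 or more, CEACAM5 passed the filter through the KO libraries, as CEACAM7 did, so the number of members called carries no weight of its own. Because the WT clones differed, the ratio of clone means ran from 14.1 for KO 38 over WT 40 to 324 for KO 28 over WT 11. Without WT clone 11 the log2 fold change was 4.28, without WT clone 40 it was 7.71, and the call held in both cases, as it did without library KO 38B (6.32, adjusted p = 0.0343).

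CEACAM6 had the highest level per kb of the 3 in every HT29 library. In normalized counts it was at 145 and 148 in WT clone 11 and at 475 and 361 in WT clone 40. In KO clone 28 it was at 6829.5 and 6117.5, and in KO clone 38 it reached 17397 and 13402. All KO libraries exceeded all WT libraries by a wide margin, and here clone 38 was the higher KO clone, unlike for CEACAM5. Means were 282 ± 164 in WT and 10936.5 ± 5413 in KO (SD, n = 4 each), a ratio of 38.7. The log2 fold change was 5.33 ± 0.483 (SE) with an adjusted p of 8.91e-04 (limma). It was 4.58 without WT clone 11 and 6.07 without WT clone 40, and still called. Without KO 38B it was 5.18 (adjusted p = 0.00553).

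CEACAM7, the member with the lowest level per kb, was at 2.88 and 2.03 in WT clone 11, which is at the detection limit, and at 13.8 in both libraries of WT clone 40. In KO clone 28 it was at 596 and 529, and in KO clone 38 at 281 and 44.1. The KO libraries alone bring CEACAM7 past the filter. Means were 8.13 ± 6.56 and 363 ± 252 (SD, n = 4 each), and the log2 fold change was 5.14 ± 0.893 (SE) with an adjusted p of 0.0215 (limma). This call was the least firm of the 3. It was lost when WT 11A, WT 11B, KO 28A, KO 28B or KO 38A was left out, and without WT clone 11 or KO clone 28, with adjusted p between 0.0621 and 0.114 and log2 fold changes of 3.98 to 5.09. Leaving out KO 38B, the library with the fewest genes detected, raised the log2 fold change to 5.97 with an adjusted p of 0.00470.

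**Figure D1:**
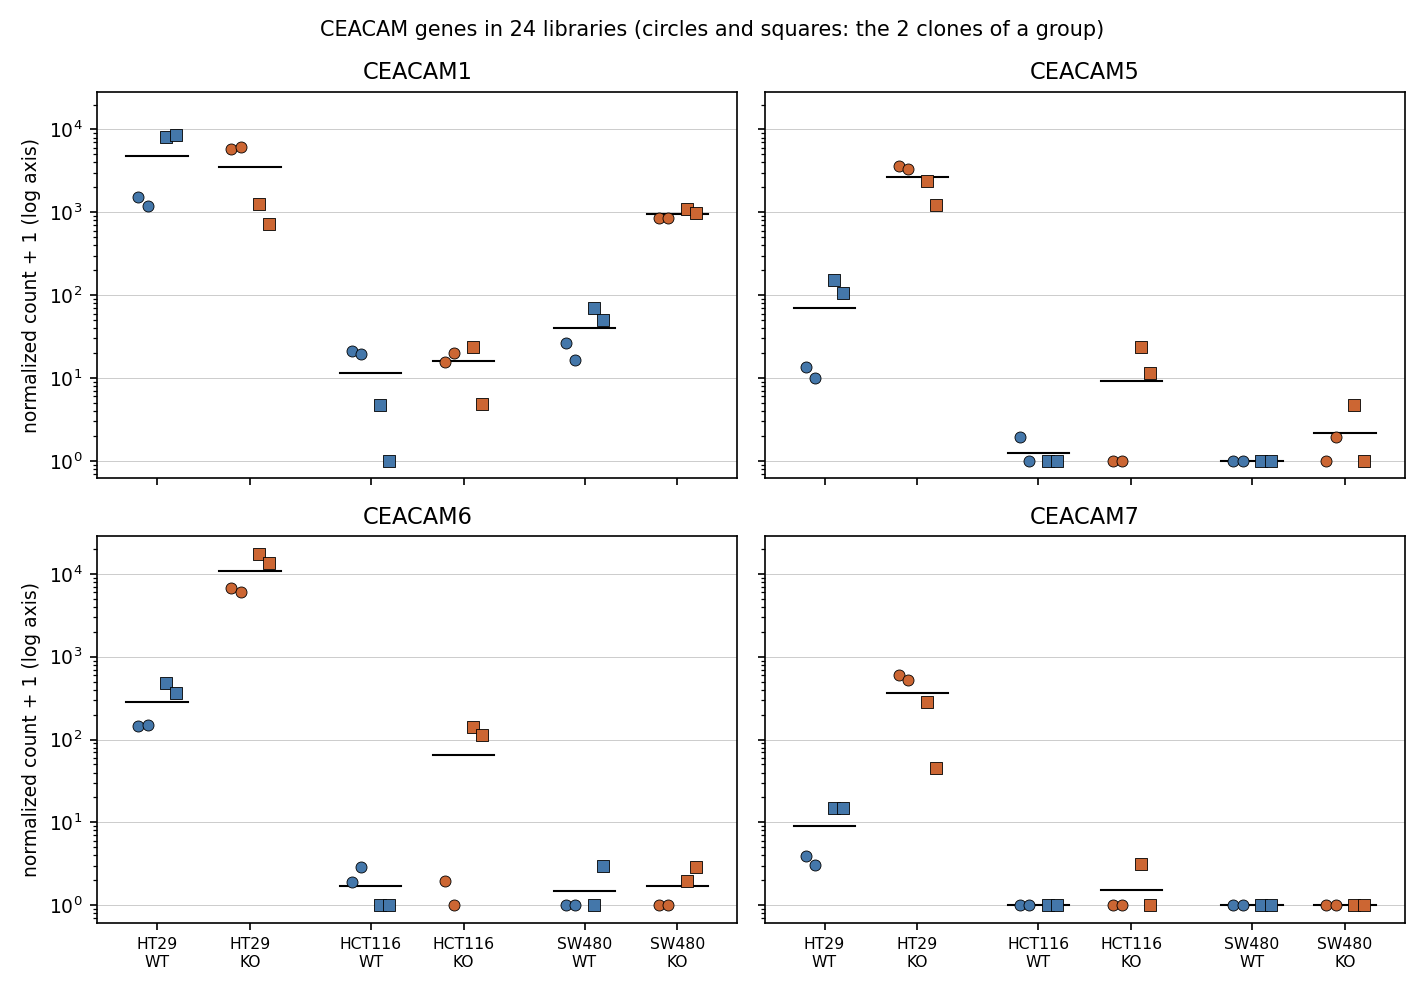
Normalized counts plus 1 (log axis) of the 4 CEACAM genes in each of 24 libraries, with WT in blue, KO in orange, circles and squares for the 2 clones of a group in order of clone number, and bars for group means. CEACAM5, CEACAM6 and CEACAM7 are separated by genotype in HT29, CEACAM1 is separated by genotype only in SW480, and CEACAM6 in HCT116 is at 142 and 113 in KO clone 47 and at or under 1.86 in the other libraries.

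The number of clones limits these 3 calls. With both libraries of a clone added up, leaving 2 WT values against 2 KO values, the log2 fold changes were 5.98 for CEACAM5, 5.29 for CEACAM6 and 5.43 for CEACAM7, and adjusted p rose to 0.598, 0.288 and 0.415 (limma). With the clone as a random effect, CEACAM5 and CEACAM6 were still called, and CEACAM7 was not, with an adjusted p of 0.0822.

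CEACAM1 in HT29 followed the clone rather than the genotype. It was at 1519 and 1179.9 in WT clone 11 and at 8048 and 8613 in WT clone 40. KO clone 28 had 5892 and 6208, and KO clone 38 had 1256 and 729.9. A high and a low clone were therefore present in each genotype. Means were 4840.0 ± 4039.6 in WT and 3521 ± 2930.3 in KO (SD, n = 4 each), and the log2 fold change of -0.47 ± 0.903 (SE) had an adjusted p of 0.821 (limma) and a 95% interval from -2.52 to 1.57, which does not show that the genotypes are alike. Leaving out KO clone 38 gave a log2 fold change of 0.86 and leaving out KO clone 28 gave -1.80, neither of them called. Without library KO 38B it was 0.10 (adjusted p = 0.970).

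The differences between clones of the same HT29 genotype were tested in a fit with the 4 clones as groups. Between WT clones 40 and 11, 3 of the 4 members were called, beside 7.58% of genes. CEACAM1 was 2.64 ± 0.267 log2 units higher in clone 40 (adjusted p = 9.01e-04), CEACAM5 3.43 ± 0.345 (adjusted p = 8.79e-04) and CEACAM6 1.49 ± 0.213 (adjusted p = 0.00464), all by limma with SE. CEACAM7 had a log2 difference of 2.111 ± 0.732 that was not called (adjusted p = 0.136), although it was called when KO 38A or KO 38B was left out (adjusted p = 8.04e-04 and 4.76e-04), which changes only the estimate of spread. All 4 values thus had the same sign in the WT clones. The CEACAM6 call was lost without WT 11A or WT 40A, with adjusted p of 0.0502 and 0.0550.

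The KO clones had no such common direction. Between KO clones 38 and 28, 2 of the 4 members were called, beside 12.5% of genes. CEACAM1 was lower in clone 38 by a log2 difference of -2.66 ± 0.267 (adjusted p = 6.16e-04), whereas CEACAM6 was higher by 1.24 ± 0.213 (adjusted p = 0.00768). CEACAM5 and CEACAM7 had log2 differences of -1.03 ± 0.345 (adjusted p = 0.0794) and -2.32 ± 0.732 (adjusted p = 0.0676) and were not called, while DESeq2 called CEACAM7 (-1.77, adjusted p = 0.0302) and a block on the letters A and B called both (adjusted p = 0.0339 and 0.0492). All 4 were called without KO 38A, leaving 38B as the only library of its clone, where CEACAM5 was at -1.51 and CEACAM7 at -3.64. Without KO 28A or KO 28B the CEACAM6 call was lost, with adjusted p of 0.0602 and 0.0927.

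Per length of the canonical transcript, the order of the 4 genes differed between the genotypes of HT29. In all 4 WT libraries the order of levels was CEACAM1, CEACAM6, CEACAM5, CEACAM7, and CEACAM1 made up 84.8% to 93.4% of the summed level of the 4 genes. In all 4 KO libraries CEACAM6 was first and CEACAM7 last. CEACAM1 was second in KO clone 28, with 30.1% and 33.4% of the sum, and below CEACAM5 in KO clone 38, with 4.58% and 3.64%. CEACAM6 reached 5166 and 6707 normalized counts per kb in KO clone 38, against 55.9 to 183 in WT libraries. In means per kb over the WT libraries, CEACAM1 was at 1386 ± 1157, CEACAM6 at 109 ± 63.1, CEACAM5 at 19.7 ± 19.9 and CEACAM7 at 3.42 ± 2.76 (SD, n = 4). Over the WT libraries, the ranges of CEACAM5 (2.61 to 42.9) and CEACAM7 (0.853 to 5.82) overlapped because the clones differ, while those of CEACAM1, CEACAM6 and CEACAM5 did not overlap.

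**Figure D2:**
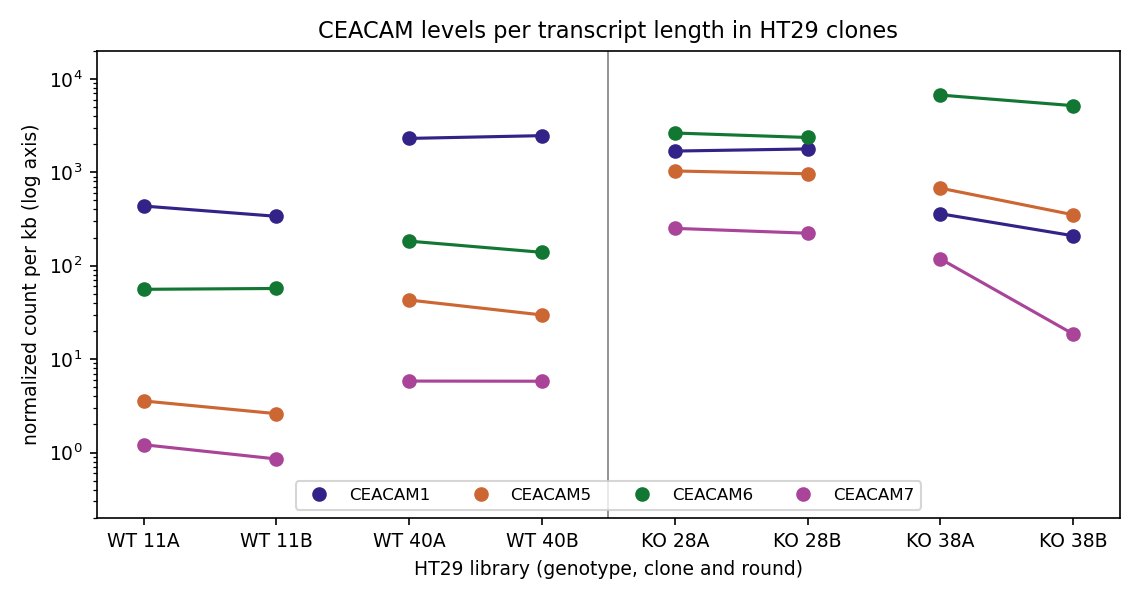
Normalized counts per kb of canonical transcript (log axis) of the 4 genes in the 8 HT29 libraries, with lines joining the libraries A and B of a clone and a vertical line between WT and KO. CEACAM1 is the highest gene in all 4 WT libraries and CEACAM6 in all 4 KO libraries, where it reaches 6707 per kb in KO 38A.

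In HCT116 the 4 members were at or near the detection limit in most libraries, with CEACAM6 in KO clone 47 as the highest value. CEACAM1 was at 20.2 and 18.6 normalized counts in WT clone 4, at 3.70 and 0 in WT clone 6, at 14.7 and 18.8 in KO clone 44 and at 22.5 and 3.81 in KO clone 47. The groups overlapped. Of the 4 members only CEACAM1 could be tested and it was not called, beside 5.06% of 15404 genes called. Its log2 fold change was 1.04 ± 0.930 (SE; limma, adjusted p = 0.498, unadjusted p = 0.287, 95% interval -1.02 to 3.11). Neither edgeR nor DESeq2 called it. Without the library KO 47A, whose reads fell on many more genes, the value was 0.79 (adjusted p = 0.678), and without WT clone 6 it turned to -0.57.

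CEACAM6 and CEACAM5 were detected in KO clone 47 of HCT116. CEACAM6 was at 142 in 47A and 113 in 47B, against 0.983 and 0 in KO clone 44 and 0 to 1.86 in the WT libraries. CEACAM5 was at 22.5 and 10.5 in clone 47, and 1 read was found in the other 6 libraries together. Both genes missed the filter because only 2 libraries had them, so genotype was not tested in the filtered fit, and with no filter neither was called (log2 fold change 1.78 with an adjusted p of 0.112 for CEACAM5, and 3.13 with 0.604 for CEACAM6). CEACAM7 had 2 reads in 47A and none in the other 7 libraries. The ratio of CEACAM6 in clone 47 over the WT libraries was 182 (252 against 3 reads, exact 95% interval 61.6 to 888, which covers counting error only), and that of CEACAM5 was 69.3 (32 against 1 read, 11.6 to 2822). Without library 47A these ratios were 162 (54.2 to 798) and 45.0 (6.54 to 1937). In a fit of the clones with no filter on low values, CEACAM5 and CEACAM6 were both called between KO clones 47 and 44, with log2 differences of 4.04 and 6.51 (limma, adjusted p = 0.00108 and 3.89e-13). With the filter, 0 of 1 member tested was called between these clones, beside 3.28% of genes, and CEACAM1 had a log2 difference of -0.73 ± 0.854. Library 47B, which detected 22620 genes like the other HCT116 libraries, held CEACAM6 at a similar level as 47A.

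Between the WT clones 6 and 4 of HCT116, CEACAM1 had a log2 difference of -3.23 ± 0.854 that was not called (limma, adjusted p = 0.0884), 0 of 1 member beside 1.44% of genes. The letters A and B paired the HCT116 libraries, and with them as a block the difference was called with an adjusted p of 0.00483. It was also called without KO 47A or KO 47B, with adjusted p of 0.0257 and 0.0221, both of which change only the estimate of spread. At 4 reads or fewer in both libraries of WT clone 6, the level of that clone was near the detection limit.

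In SW480 CEACAM1 rose, and it was the only member high enough to be tested. It was at 25.3 and 15.6 in WT clone 4 and at 68.5 and 48.9 in WT clone 5. In KO clone 17 it was at 855 and 864, and in KO clone 21 at 1086 and 972.5. Every KO library was above every WT library, as for 25.3% of genes tested. Means were 39.6 ± 23.8 and 944 ± 108 (SD, n = 4 each), a ratio of 23.9. The log2 fold change was 4.74 ± 0.382 (SE) with an adjusted p of 5.92e-06 (limma), position 113 from the top of 16325 genes. This is 1 of 1 member tested, beside 17.5% of genes called and 10.7% called higher. The call held under all 22 alternatives, among them the 1 value per clone (adjusted p = 0.00250), and the log2 fold change was 4.00 without WT clone 4 and 5.49 without WT clone 5.

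CEACAM5, CEACAM6 and CEACAM7 had at most 4 reads in any SW480 library. CEACAM5 had 0 reads in the 4 WT libraries and 5 in the 4 KO libraries, 4 of them in KO 21A. CEACAM6 had 2 and 3 reads, and CEACAM7 had none in all 8 libraries. A change of these genes below the limit of 3 reads per library could not have been seen. Between WT clones 5 and 4, CEACAM1 was 1.496 ± 0.209 log2 units higher in clone 5 and was called (adjusted p = 2.91e-04), 1 of 1 member beside 1.97% of genes. Between KO clones 21 and 17 it had a log2 difference of 0.26 ± 0.209 (adjusted p = 0.394, unadjusted p = 0.237), 0 of 1 member beside 4.61% of genes.

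**Figure D3:**
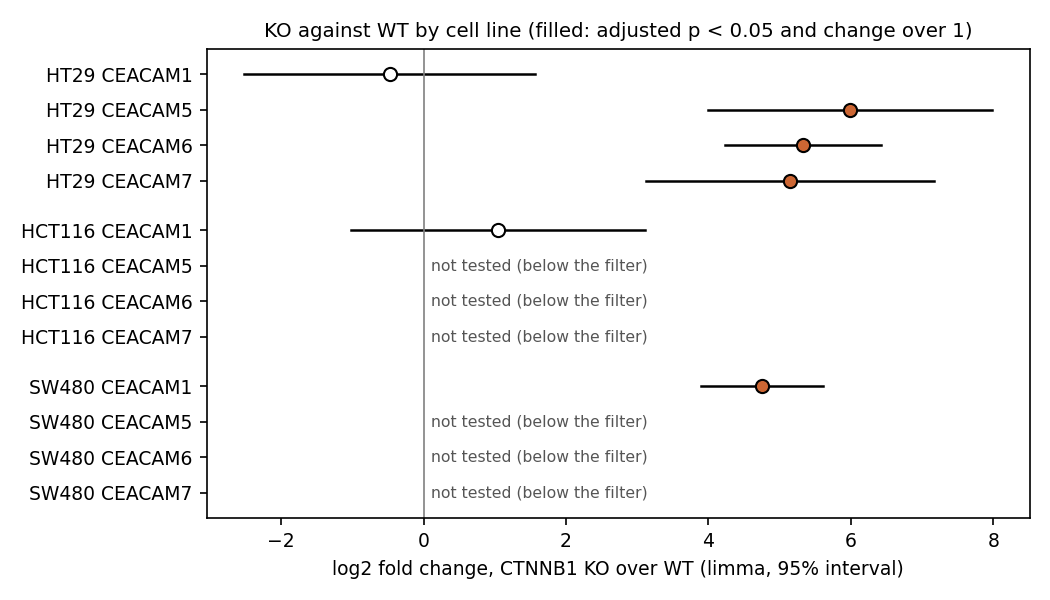
Log2 fold changes of CTNNB1 KO over WT with 95% intervals (limma) for the 4 genes in each line, filled where called. CEACAM5, CEACAM6 and CEACAM7 lie between 5.14 and 5.99 in HT29 and CEACAM1 at 4.74 in SW480, while the intervals of CEACAM1 in HT29 and HCT116 include 0.

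Whether the effect of the knock-out differed between the lines was tested directly in a fit of all 24 libraries. All 4 members were called for HT29 minus SW480, beside 12.3% of genes. CEACAM1 had a difference of -5.22 ± 1.26 log2 units (adjusted p = 0.00565), since it was called higher in SW480 and not called in HT29. CEACAM5, CEACAM6 and CEACAM7 had differences of 5.20 ± 1.27 (adjusted p = 0.00607), 5.09 ± 1.56 (adjusted p = 0.0282) and 5.14 ± 0.892 (adjusted p = 2.31e-04). With at most 4 reads of each in any SW480 library, these 3 differences largely restate the HT29 change, which was also 5.14 for CEACAM7. They cannot show whether these genes respond differently in SW480, and the count of members called carries no weight of its own. These 3 genes passed the filter of this fit only through HT29 and, for CEACAM5 and CEACAM6, HCT116 KO clone 47, and edgeR and DESeq2 called none of the 3 in this comparison, with adjusted p between 0.0937 and 1.00, so that only the CEACAM1 difference was found by all 3 tools. The CEACAM1 call was lost without WT clone 40 or KO clone 38 of HT29 (adjusted p = 0.0503 and 0.0523) and with 1 value per clone (adjusted p = 0.149). The CEACAM5 call was lost without WT clone 11 of HT29 (adjusted p = 0.0520), and the CEACAM6 call in 11 of the fits that left out a library or a clone (adjusted p 0.0502 to 0.134).

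For HT29 minus HCT116, 2 of the 4 members were called, beside 5.39% of genes, CEACAM5 with 4.21 ± 1.27 (adjusted p = 0.0456) and CEACAM7 with 4.73 ± 0.892 (adjusted p = 0.00162). Neither was called by edgeR or DESeq2, where the CEACAM5 difference was 0.74 and 0.40 and the CEACAM7 difference 3.13 and 3.94. CEACAM7 had 2 reads over all HCT116 libraries, so its difference largely restates the HT29 change. The CEACAM5 call was also lost with the letters A and B as a block (adjusted p = 0.0511), with the clone as a random effect (0.138) and in 27 of the fits that left out a library or a clone. Without both HT29 KO 38B and HCT116 KO 47A, a fit chosen after seeing the data, it was 5.38 (adjusted p = 0.00899). CEACAM6 had a difference of 2.19 ± 1.56 (adjusted p = 0.460) with all libraries, of the opposite sign under edgeR (-1.01 with TMM normalization) and DESeq2 (-1.25), and of 5.45 (adjusted p = 2.40e-04) once HCT116 KO clone 47 was left out. For HCT116 minus SW480, none of the 4 was called by limma, beside 10.0% of genes, and 1 had an unadjusted p under 0.05, CEACAM1 with -3.70 ± 1.26 (adjusted p = 0.0554), which edgeR and DESeq2 called (adjusted p = 0.0450 and 0.00779). It was also called by limma in 8 of the fits that left out a library or a clone, and CEACAM6 was called without HCT116 KO 44B or KO clone 44 (adjusted p 2.00e-05 to 0.0464).

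Among WT clones, HT29 had far higher levels of CEACAM1, CEACAM5 and CEACAM6 than both other lines. WT HT29 cells had 456 times as much CEACAM1 RNA as WT HCT116 cells and 122 times as much as WT SW480 cells by group means, and the log2 differences of 8.97 ± 1.00 and 6.57 ± 1.00 were called (limma, adjusted p = 8.43e-06 and 1.07e-04). CEACAM6 was also called in both comparisons, with 7.34 ± 0.519 and 7.56 ± 0.519 (adjusted p = 3.27e-08 and 1.91e-08), which makes 2 of 2 members tested in each, beside 37.5% and 40.1% of 17205 genes. CEACAM6 passed the filter of this fit through HT29 alone, so that its calls follow in part from the filter. In reads it stood at 1066 in the 4 WT HT29 libraries, 3 in HCT116 and 2 in SW480, ratios of 398 and 574 with exact 95% intervals of 136 to 1933 and 159 to 4748. CEACAM5 had 257 reads in WT HT29, 1 in HCT116 and 0 in SW480, by the group mean at least 23.7-fold higher than the limit of 3 reads per library in SW480. That mean joins WT clone 11 at 10.8 and WT clone 40 at 127 normalized counts. CEACAM7 had 30 reads in WT HT29 and 0 in the WT libraries of both other lines, by the group mean a level at least 2.91-fold and 2.80-fold higher than the limit of 3 reads per library in HCT116 and SW480. This excess rests on WT clone 40, since WT clone 11 was itself at the limit (2.88 and 2.03 normalized counts). Between WT HCT116 and WT SW480, 0 of 2 members were called, beside 40.2% of genes. CEACAM1 had a log2 difference of -2.40 ± 1.00 with an adjusted p of 0.0515 and an unadjusted p of 0.0349, and it was called in 8 of the 27 other fits, those without HT29 WT 11A or 40B, HCT116 WT 4A or 4B, SW480 WT 4B, or HT29 WT clone 11 or 40 or HCT116 WT clone 4, where the log2 difference was between -4.02 and -2.40. For CEACAM1 the order of WT levels was therefore HT29, SW480, HCT116, in which the last pair did not differ beyond the threshold.

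Genes next to the members were mostly too low to be tested. Of the 3 nearest protein-coding genes on either side of the CEACAM7, CEACAM5 and CEACAM6 group, all 6 (ERICH4, CEACAM21, CEACAM4, CEACAM3, LYPD4 and DMRTC2) were too low to be tested in HT29, with CEACAM3 at a mean of 3.67 in WT and 3.49 in KO and the others at means of 0.754 or less. In SW480, CEACAM21 fell from a mean of 112 to 14.8 (log2 fold change -2.83, limma adjusted p = 7.77e-06). Beside 2.30%, 5.06% and 17.5% of genes called in HT29, HCT116 and SW480, none of the genes tested on either side of CEACAM1 was called. Closest to it, CXCL17 had a mean of 19.3 in WT and 209 in KO clones of HT29 (adjusted p = 0.234) and CEACAM8 was at a mean of 1.94 or less in all groups.

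Among 18 other CEACAM and PSG genes, which encode relatives and pregnancy-specific glycoproteins, 2 could be tested in HT29. Of these 1 was called higher, beside 1.90% of all genes called higher. CEACAM18 went from a range of 0 to 0.988 in WT to 28.5 to 55.0 in KO libraries (log2 fold change 4.83, adjusted p = 0.00103), and it passed the filter through the KO libraries alone. In HCT116 1 was tested and none called, beside 5.06% of all genes called. In SW480 7 were tested, of which CEACAM19 was called higher (1.53, adjusted p = 0.00501) and 5 were called lower, CEACAM21 and PSG1 (-2.60, adjusted p = 2.90e-06), PSG2, PSG9 (-2.54, adjusted p = 0.00126) and PSG11. These 6 of 7 stand beside 17.5% of all genes called in SW480. All 7 together had a median change of -2.34 on the log2 scale, beside 0.00 over all genes tested. Of the 100-base stretches of the canonical CEACAM1 transcript, 0.531% were found unchanged in another gene, namely CEACAM3, and none of those of CEACAM7, while the assignment of reads among these paralogs was not tested. The 1.91% of CEACAM5 and 2.04% of CEACAM6 stretches that were shared belonged to an overlapping gene model on the same strand, ENSG00000267881, which itself had 4 to 77 reads in HT29 KO libraries. The library kit did not mark strand, so reads from the antisense gene LIPE-AS1 cannot be told apart from CEACAM1 reads where both overlap. LIPE-AS1 was at 29.8 normalized counts or less in all libraries. In HCT116 it was at 3.71 to 17.9, a level similar to that of CEACAM1 (0 to 22.5). In SW480 WT libraries it was at 5.51 to 13.5, beside CEACAM1 at 15.6 to 68.5.

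GPI anchor genes make, attach or act on the anchor that holds CEACAM5, CEACAM6 and CEACAM7 at the surface. Of 29 listed, 27 were tested in HT29 and 1 was called, beside 2.30% of all genes, PGAP1, an inositol deacylase, which was lower in KO (log2 fold change -1.26, adjusted p = 0.0361). In HCT116 and SW480 28 were tested and none passed both thresholds, beside 5.06% and 17.5% of all genes called. Smaller differences had limma adjusted p below 0.05, such as GPAA1 in HCT116 (0.64, adjusted p = 0.00449) and PIGM in SW480 (-0.62, adjusted p = 7.41e-04). The medians were 0.06, 0.12 and -0.04, beside 0.03, -0.01 and 0.00 over all genes. Among 11 cytoplasmic partners and splicing factors of CEACAM1, all were tested in each line. FLNA, the actin crosslinker filamin A, was called lower in HT29 (-1.66, limma adjusted p = 0.0324), beside 2.30% of all genes called. None of the 11 passed both thresholds in HCT116 or SW480, beside 5.06% and 17.5% of all genes called. In SW480, however, smaller differences had limma adjusted p below 0.05. HNRNPA1 (-0.73, adjusted p = 5.07e-05), HNRNPL (-0.55, 2.40e-04) and HNRNPM (-0.41, 3.80e-04) were lower there. CALM2 (0.38, 0.00695), CALM3 (0.39, 0.00442) and LYN (0.28, 0.0418) were higher. LYN was also higher in HT29 (0.88, limma adjusted p = 0.0321). PTPN6 and PTPN11, the phosphatases SHP-1 and SHP-2 that bind the CEACAM1 tail, were expressed in all groups, with lowest values of 449.5 and 4971.

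Of 14 transcription factors linked to these promoters or to the colonocyte state, 12 were tested in each line. None was called in HT29, beside 2.30% of all genes called. There HNF4A had a log2 fold change of 2.34 ± 1.02 (adjusted p = 0.302) and KLF4 2.45 ± 0.603 (adjusted p = 0.0775). In HCT116, beside 5.06% of all genes called, ELF3 (2.50, adjusted p = 1.28e-05) and SMAD3 (2.111, adjusted p = 3.77e-06) were called higher. In SW480, beside 17.5% of all genes called, ELF3 (3.49, adjusted p = 3.58e-09), KLF4 (2.49, adjusted p = 1.25e-07) and IRF1 were called higher, and CDX2 and KLF5 lower. IRF1, an interferon-responsive activator, rose from 1122 ± 76.4 to 4522 ± 339 (SD, n = 4 each; log2 fold change 2.01, adjusted p = 1.96e-08) in the line in which CEACAM1 rose. Any part of these factors in the CEACAM changes was not tested. Of 20 differentiation genes of the colon epithelium, 13 were tested in HT29, with a median log2 fold change of 2.23. Of these 5 were called higher and 8 were not called, beside 2.30% of all genes called and 1.90% called higher. The 5 were CDH17, an intestinal cadherin (5.87), PHGR1 (2.89), KRT20 (2.34), LGALS4 (2.21) and TSPAN1 (1.33). In HCT116, where 3 were tested, CA2 was called higher (1.32) and KRT20 lower (-5.78), beside 5.06% of all genes called. In SW480 MUC2 (3.35) and TSPAN1 (1.09) of 3 tested were called higher, beside 17.5% of all genes called and 10.7% called higher. Markers of other cell types, 8 listed and 7 matched, summed to 13.2 to 25.9 in WT and 28.4 to 88.2 in KO libraries of HT29, and to between 157 and 454 in the other lines. COL1A1 made up most of these sums, with at most 85.4 in HT29, and the leukocyte marker PTPRC was at or under 4.28 in all libraries. Only 1 gene of the list could be tested in HT29, 1 in HCT116 and 2 in SW480. None of these was called, beside 2.30%, 5.06% and 17.5% of all genes.

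Over the 24 libraries, after the mean of each line had been subtracted, CEACAM5 correlated with CEACAM6 (Pearson r = 0.880) and CEACAM7 (r = 0.885), and CEACAM6 with CEACAM7 (r = 0.679). CEACAM1 had r of 0.187, 0.048 and 0.136 with CEACAM5, CEACAM6 and CEACAM7. Among 11762 other genes with a mean of at least 100, the 3 most alike were MAPK13 (0.901), ST6GALNAC4 (0.882) and FMNL1 (0.868) for CEACAM1, SNX9 (0.904), DAPK1 (0.8995) and ABCA5 (0.889) for CEACAM5, SDCBP2 (0.896), CEACAM5 (0.880) and CITED2 (0.872) for CEACAM6, and DAPK1 (0.935), SLC2A10 (0.928) and INSR (0.925) for CEACAM7. These values describe libraries that share clones and genotypes.

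**Figure D4:**
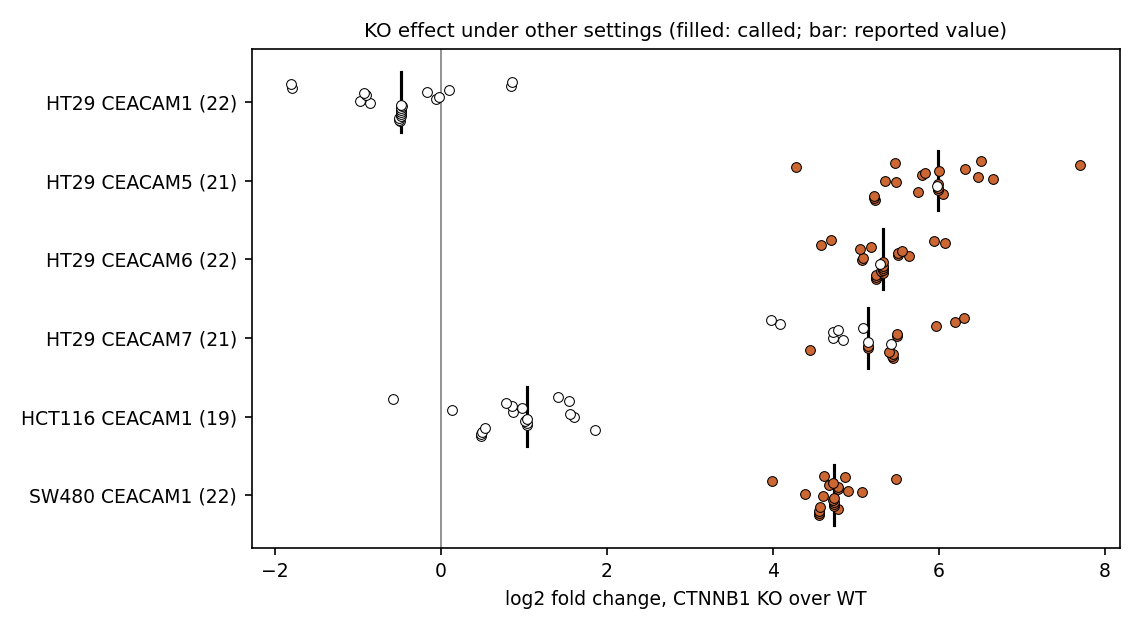
Log2 fold change of CTNNB1 KO over WT for the 6 member and line pairs that could be tested, with the reported value as a bar and 1 point for each alternative fit (number in parentheses), filled where called. All points of CEACAM5, CEACAM6 and CEACAM7 in HT29 and of CEACAM1 in SW480 lie between 3.98 and 7.71, while those of CEACAM1 in HT29 run from -1.80 to 0.86.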

How the data were processed

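Poly(A) RNA of 24 libraries (TruSeq RNA v2, which does not mark strand) was sequenced in pairs by the authors, aligned to GRCh37 with STAR 2.7.5b, counted per gene with featureCounts 2.0.1 and scaled with DESeq2 (Galaxy 2.11.40.6), per the labels and the study's methods. The deposited files hold the resulting signal per gene, a read count divided by 1 size factor per library. Whole reads were recovered from them for 100% of values (tolerance 0.1 read), giving 22297049 to 29068378 reads per library. Floors and read ratios cover counting error only.

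Gene identifiers were matched to symbols for 95.8% of 58051 genes. Comparisons were fitted with limma 3.58.1 (R 4.3.3; trend and robust moderation) on log2(value + 1), for genes at 10 or more in at least 4 libraries, with Benjamini-Hochberg adjustment over all genes tested: KO against WT within each line (8 libraries), WT lines (12 libraries), differences of KO effects (24 libraries) and clones within a line. The scripts were tested on simulated data. Alternatives were edgeR 4.0.16 (TMM and RLE) and DESeq2 1.42.0 on the recovered reads, pseudocounts of 0.1 and 5, no filter and a stricter one, the letter A or B as a replicate block, summed or random clones, and leaving out each library or clone. Fits that leave a clone with 1 library assume that it varies like the other groups. Differences between B and A correlated above 0.1 in 6 of 6 pairs of HCT116 clones (r 0.182 to 0.374). In HT29 this held for 2 of 6 pairs (r -0.309 to 0.424) and in SW480 for 1 of 6 (r -0.041 to 0.127). The letters were thus taken to pair libraries in HCT116 only, although the highest r was in HT29.

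The members and gene lists were chosen with earlier results of these data known. Named besides the members are up to 3 called genes per list and line with the largest change, the 3 nearest protein-coding genes on each side, the 3 most alike genes per member, CTNNB1, and, chosen after their values were seen, PSG2, PSG11, CEACAM19, CDX2, KLF5, HNF4A, PTPN6, PTPN11, COL1A1, PTPRC, VIL1 and the overlapping genes. Chosen in the same way were KLF4, LGALS4, TSPAN1 and LYN in HT29, GPAA1 in HCT116, and PIGM, HNRNPA1, HNRNPL, HNRNPM, CALM2, CALM3 and LYN in SW480. Levels per kb use the canonical transcript of GENCODE v44lift37. Series-wide tables of the authors' own comparisons, which hold fold changes and p-values, were not used, and no protein sequence is shown.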

Additional observations from a re-analysis of the deposited data

Results flagged for a closer look

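In 2 comparisons between lines, the limma test of the difference in knock-out effect (24 libraries) called members. For HT29 minus SW480 the differences in log2 fold change were -5.22 for CEACAM1, 5.20 for CEACAM5, 5.09 for CEACAM6 and 5.14 for CEACAM7. For HT29 minus HCT116 they were 4.21 for CEACAM5 and 4.73 for CEACAM7. CEACAM5, CEACAM6 and CEACAM7 passed the filter of this fit through HT29 and, for the first pair, HCT116 KO clone 47, and edgeR and DESeq2 called none of them in either comparison. They had at most 4 reads in any SW480 library, so their differences for HT29 minus SW480 largely restate the HT29 change. No library of a group of 4 stood apart from the other 3 by Dixon's criterion in the 15 groups looked at.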

How the results depend on the processing

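No result for a single member changed direction as a called value: of 1009 alternative values for 36 such results, 889 kept their side of the threshold, 85 lost a call, 35 gained one and 0 reversed. Of 376 counts of members called, 286 stayed within 1.5 times the reported count. The number called in HT29 KO against WT was 3 as reported, 1 with at least 10 in every library, 0 with reads summed per clone and 2 to 3 with a library or clone left out. For WT HT29 against HCT116 and against SW480 it was 4 with no filter and 1 to 2 with a library or clone left out, and for WT HCT116 against SW480 0 to 1. For the difference of KO effects HT29 minus HCT116 it was 0 under edgeR with TMM or RLE, DESeq2, a pseudocount of 0.1 and summed clones, 1 with no filter, the replicate block or a random clone effect, and 1 to 3 with a library or clone left out. For HT29 minus SW480 it was 1 under edgeR with TMM or RLE, DESeq2 and summed clones, 2 with a pseudocount of 0.1, and 2 to 4 with a library or clone left out. For HCT116 minus SW480 it was 1 under edgeR with TMM or RLE, DESeq2, a pseudocount of 5, and without both HT29 KO 38B and HCT116 KO 47A (chosen after seeing the data), and 0 to 1 with a library or clone left out.

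With the letters A and B as a replicate block, HT29 KO clone 38 against 28 had 4 members called (1 to 4 with a library left out) and HCT116 WT clone 6 against 4 had 1, as with no filter (0 to 1 with a library left out). With no filter HCT116 KO clone 47 against 44 had 2. The pairing rests on HCT116 alone, since only 2 of 6 pairs of clones in HT29 and 1 of 6 in SW480 correlated above 0.1. Where fewer genes or samples enter a fit, that is the alternative's own construction; otherwise the cause was not tested. A minimum of 10 in every library left no member to test between WT lines, for the differences of KO effects or within HCT116. Genes at 3 reads or fewer per library could not show a change, and 2 clones per genotype limit all calls.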
